A study of Mus musculus with 18 samples.

Results

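Solute carriers are the membrane proteins that move amino acids, sugars, metal ions, nucleotides and other small molecules into cells and between their compartments. The genes described here are the solute carrier genes with measurable signal in a study of pancreatic acinar cells, endogenous beta cells and beta cells induced in the adult mouse pancreas. They were chosen by name and by signal. The gene symbol begins with Slc and a digit, and the detection p-value, which compares a gene with the negative controls of its array, was under 0.01 on at least 3 of the 18 arrays. Of 276 such symbols on the array, 147 met this rule. The rule leaves out Slc2a2, Slc30a8 and Slc16a1 by name, 2 of which had met it, so that 145 genes remained among the 8942 genes tested and the 18118 symbols measured. A further 116 symbols were detected on no array. The detection values thus chose the genes, so counts of detected or called genes describe this list and its background, which passed the same filter, and test nothing about the family.

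All mice were Rag1-/-, a strain obtained from Jackson Labs that makes no T or B cells, so every group shares this deletion. The 6 groups, with 3 arrays each, were acinar cells, induced beta cells labelled d10, d30, d60 and 7m (3 times in days and the last in months), and endogenous beta cells. Cells were induced with an adenovirus given into the splenic lobe, and the labels do not name its genes. Islets were removed first, the remaining acinar tissue was dissociated with the enzymes liberase and elastase, and Cherry+ induced cells were sorted by flow cytometry. The same protocol text stands on every sample, so how the acinar and endogenous beta cells were purified, and the age and sex of the mice, are not given in it. Whether the 3 arrays within a group stand for 3 animals is not said. The p-values then measure the spread between arrays alone, which may be technical.

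In textbook accounts the acinar cell is among the most active protein makers of the body and takes up large amounts of amino acids for digestive enzymes, while it secretes chloride, bicarbonate and zinc with its juice. The beta cell takes up glucose, loads zinc and monoamines into insulin granules and uses amino acids and mitochondrial exchange of metabolites in coupling nutrients to secretion. Solute carriers belong to families numbered by sequence in the gene symbol.

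Levels are normalized log2 intensities, and a level can be compared between groups for a single gene but not between genes, since each probe has its own brightness. Differences are differences of group means on the log2 scale with their standard error (SE), n = 3 arrays per group, and adjusted p-values are Benjamini-Hochberg values over all 8942 genes from limma. A gene was called at an adjusted p under 0.05. A gene counts as measured on an array where it was detected with a signal over the average negative control. A gene measured on none of the 3 arrays of a group is called unmeasured there and gets only a bound ("at least N-fold"). The bound is set against the lowest measurable signal of each array, which lay between 5.29 and 6.12 on the log2 scale. For 35 of the 145 genes the detection p-values lie off the steps that a single probe gives, so that bright genes such as Slc12a2 are listed as not detected on some arrays. Between 92 and 126 of the 145 genes were detected on an array, against 5990 to 7745 of all symbols, and 64 were detected on all 18 arrays. At the edge of the rule, the 7 genes with exactly 3 detections had highest levels of 5.03 (Slc28a3) to 6.77 (Slc2a13), and the 5 symbols with 2 detections reached 5.48 (Slc7a2) to 8.77 (Slc25a20). In bulk arrays, fewer cells of a type and less RNA per cell cannot be told apart.

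The day 60 and 7-month arrays are not independent in the way their labels imply. Deviations from the group mean correlated at 0.79 to 0.86 between day 60 and 7-month arrays of the same replicate number, against −0.04 to 0.07 in the other 14 pairs of groups. The spread of the difference between a day 60 and a 7-month array of the same number was 0.102 to 0.108 on the log2 scale over 4357 genes, within the 0.0881 to 0.126 between replicates of acinar cells, beta cells, day 10 and day 30 (at most 0.095 at day 10 and 0.0945 at day 30), while arrays within day 60 lay 0.228 to 0.263 apart and those within 7 months 0.22 to 0.27. Of the 145 genes 0 were called between 7 months and day 60, where limma called 0% of all genes (3 of the 145 and 201 of all genes had an unadjusted p under 0.05, or 10 and 599 when the arrays were paired by number). The largest difference of a solute carrier between these times was 0.29, for Slc18a2. Values at 7 months are therefore given below as the late time, and with day 60 in its place 108, 111 and 115 genes were called against acinar cells, beta cells and day 10 (77%, 77.7% and 75.4% of all genes tested), where 7 months gave 112, 107 and 114 (77.7%, 77.9% and 75.1%).

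**Figure D1:**
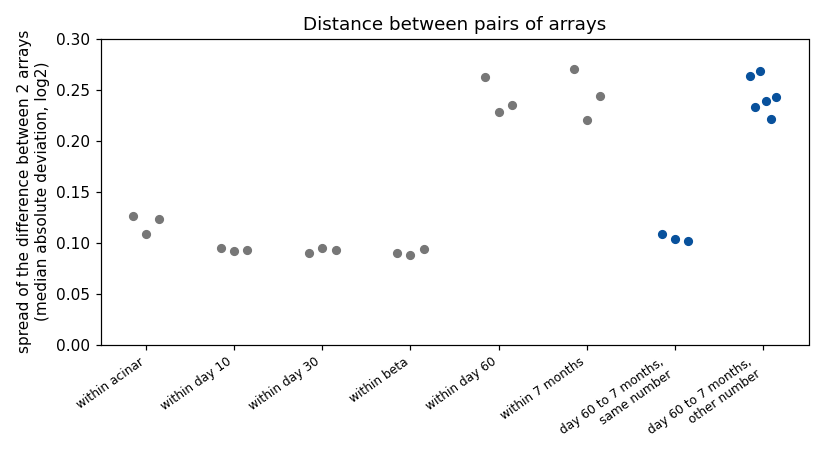
Spread of the difference between pairs of arrays (vertical axis, median absolute deviation on the log2 scale over 4357 genes), with each point a pair of arrays and columns giving pairs within a group or between day 60 and 7 months. Same-numbered day 60 and 7-month arrays sit at 0.102 to 0.108, below pairs within either of these groups, which start at 0.22.

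The labelled cell types were checked against their markers. The summed level of 11 acinar markers was 217380 to 222022 on acinar arrays, 193898 to 204799 on all induced arrays and 5988 to 7153 on beta arrays. The summed level of the beta cell list was 486 to 521 in acinar cells, 28350 to 29363 at day 10, 66774 to 80787 at 7 months and 85787 to 88215 in beta cells. Its genes did not all follow the sum. Mafa had means of 8.39 at day 10 and 8.01 at 7 months against 5.28 in beta cells. Iapp at day 10 (6.88) was not above acinar cells (7.08), and Pcsk1 was detected on no array. The induced arrays thus carried nearly the acinar level of digestive enzyme markers beside a beta cell signal, and the part of acinar RNA in the carrier levels of induced arrays was not tested. Markers of other islet cells summed to 6946 to 7173 in acinar cells, 29536 to 41754 on induced arrays and 68865 to 70356 on beta arrays. The list was split. Gcg, Sst, Ppy and Pyy had their highest means in beta cells (14.56, 14.22, 12.43 and 13.73). Ghrl had means of 13.76 to 14.17 at the induced times against 4.95 in beta cells. Ttr was highest at day 30 (13.82, against 12.75 in beta cells) and Hhex in acinar cells (8.65, against 6.89). Mesenchymal markers summed to 4815 to 4940 in acinar cells, 586 to 592 at day 10, 1799 to 1942 at day 30, 4078 to 11030 at 7 months and 320 to 328 in beta cells, and the 7-month array numbered 2 was the highest. Endothelial markers summed to 2798 to 2840 in acinar cells, 883 to 911 at day 10, 1740 to 2539 at 7 months and 271 to 279 in beta cells, and duct markers to 7831 to 8104, 6611 to 6791, 4207 to 9630 and 11779 to 12151. In the endothelial list Plvap stood apart, with means of 9.24 in acinar cells, 9.33 at day 10 and 10.37 at 7 months. All other listed endothelial markers were lower at day 10 than in acinar cells, among them Emcn (4.64 against 9.69), Pecam1 (4.85 against 8.14) and Eng (4.49 against 7.41). The duct list was split too, with Spp1 (12.92) and Krt7 (11.96) highest in beta cells. Muc1 (5.53, against 11.73 in acinar cells), Anxa2 (5.99 against 10.19) and Sox9 (4.45 against 7.72) were lowest there. The part of other islet, mesenchymal, endothelial and duct cells in the carrier levels was not tested.

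Between beta and acinar cells, 128 of the 145 genes were called, 65 higher and 63 lower in beta cells, which is 88.3% of the genes where 79.5% of all genes tested were called. Acinar cells carried amino acid, zinc, chloride and copper carriers that were low or unmeasured in beta cells, and beta cells carried other amino acid and hexose carriers, proton exchangers and the taurine carrier. The median difference over the 145 genes was 0.08, or 0.00 with genes unmeasured in a group at their bound, against 0.06 over all genes. The split of calls depends on scaling: scaling by array medians gave 93 higher and 29 lower, and the deposited log10 values gave 106 and 17, where the median difference of all genes was 0.95 and 1.06 in place of 0.06. Of all called genes 53% were higher in beta cells, against 80.3% with scaling by array medians and 88.4% in the deposited log10 values, and the class counts given further on stand beside these shares. For 7 months against acinar cells the shares were 48.7%, 74.6% and 90.2%, and for 7 months against beta cells 44.6%, 30% and 31.1%, in the same order. Among genes detected in a single group, Slc35f5 was detected in acinar cells and Slc2a13, Slc39a10 and Slc43a2 in beta cells.

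**Figure D2:**
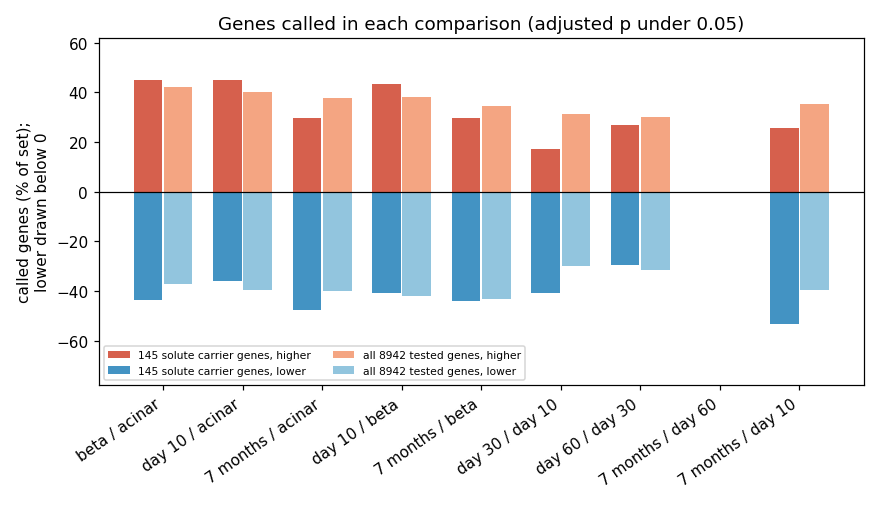
Share of genes called higher (above 0) and lower (below 0) in each of 9 comparisons, in percent, for the 145 solute carrier genes and for all 8942 tested genes. The shares called lower stand furthest apart between 7 months and day 10, at 53.1% of the solute carriers against 39.6% of all genes, and from day 10 to day 30 they are 40.7% against 30%.

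Slc12a8, a member of the cation-chloride cotransporter family, gave the widest separation. Its levels were 11.42, 11.36 and 11.41 on the acinar arrays and 5.10, 5.34 and 5.14 on the beta arrays, where it was unmeasured. The bound puts beta cells at least 61.1-fold lower (adjusted p = 1.87e-14). On induced arrays it stood at 11.12, 11.18 and 11.08 at day 10, 10.06, 10.08 and 10.18 at day 30, and 9.46, 10.07 and 9.92 at 7 months. Every induced array was thus below every acinar array and far above the beta arrays. The day 10 difference from acinar cells of −0.27 ± 0.17 was not called (adjusted p = 0.16), although these arrays did not overlap. Its SE takes in the wider spread of the late arrays. At 7 months the gene had fallen by 1.58 ± 0.17 (adjusted p = 4.3e-07).

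The zinc importer gene Slc39a5 (ZIP5) followed a like course. Acinar arrays read 9.72, 9.68 and 9.75, day 10 arrays 9.81, 9.89 and 9.86, and 7-month arrays 7.66, 8.04 and 7.91, while all 3 beta arrays lay between 4.66 and 4.67 and were unmeasured. Beta cells were thus at least 19.1-fold below acinar cells (adjusted p = 6.86e-16). Day 10 was at least 21-fold above beta cells (adjusted p = 6.75e-16), and 7 months at least 5.32-fold (adjusted p = 3.84e-13). Between day 10 and day 30 it fell by 1.92 ± 0.11 (adjusted p = 2.97e-09), with no overlap of the arrays.

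Glutamine and small neutral amino acids enter cells through the sodium-coupled carriers of family 38. Slc38a3 read 9.86, 9.55 and 9.84 in acinar cells, 9.10, 8.97 and 9.17 at day 10, 7.06, 7.81 and 7.88 at 7 months and 4.52 to 4.58 in beta cells, where it was unmeasured. Beta cells were at least 19.6-fold below acinar cells (adjusted p = 1.1e-11). At 7 months the gene lay between both cell types, 2.17 ± 0.24 below acinar cells (adjusted p = 6.44e-07) and at least 4.35-fold above beta cells (adjusted p = 1.37e-08). Slc38a5 was instead highest at day 10. Its levels were 12.84, 12.80 and 12.80 in acinar cells, 13.93, 13.93 and 13.91 at day 10, 12.58 to 12.64 at day 30, 10.99, 11.79 and 12.07 at 7 months and 8.93, 8.88 and 8.90 in beta cells. No array of day 10, acinar cells, 7 months or beta cells overlapped another of these groups. Day 10 was 1.11 ± 0.24 above acinar cells (adjusted p = 0.00053). The level at 7 months was 1.20 ± 0.24 below acinar cells (adjusted p = 0.000282) and 2.71 ± 0.24 above beta cells (adjusted p = 4.76e-08). The difference between beta and acinar cells was −3.91 ± 0.24 (adjusted p = 3.62e-10).

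Amino acid carriers outside family 38 also separated acinar from beta cells. The glutamate carrier Slc1a3 read 9.60, 9.60 and 9.68 in acinar cells and 4.36 to 4.46 in beta cells, at least 18-fold lower (adjusted p = 1.91e-16). Induced cells lay between, at 7.22 to 7.35 at day 10 and 7.63, 7.75 and 7.75 at 7 months. The glycine carrier Slc6a9 stayed near its acinar level of 11.59 at day 10 (11.76, difference 0.18 ± 0.13, adjusted p = 0.212) and was 2.45 ± 0.13 lower in beta than in acinar cells (adjusted p = 4.26e-11).

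A second set of acinar carriers had fallen by day 10. Slc26a6, a chloride-bicarbonate exchanger of duct and acinar membranes, read 8.65, 8.59 and 8.52 in acinar cells, 6.81, 6.59 and 6.97 at day 10, 6.01, 5.91 and 6.13 at 7 months and 5.80, 5.96 and 5.92 in beta cells. At 7 months it had fallen by 2.57 ± 0.13 from acinar cells (adjusted p = 8.3e-11), and its arrays overlapped those of beta cells. The sodium-potassium-chloride cotransporter Slc12a2 read 9.90 to 9.94 in acinar cells, 7.54 to 7.58 at day 10, 7.80 to 8.13 at 7 months and 7.24 to 7.32 in beta cells. The deposited table lists it as undetected in acinar cells. The fall from acinar cells to day 10 was 2.35 ± 0.096 (adjusted p = 2.84e-12). The copper carrier Slc31a2 (9.01, 8.93 and 9.07 in acinar cells, 6.91, 7.06 and 6.84 at day 10) fell by 2.07 ± 0.18 (adjusted p = 2.06e-08). The mitochondrial ornithine carrier Slc25a15 (8.15 to 8.30 and 6.32 to 6.48) fell by 1.81 ± 0.065 (adjusted p = 5.67e-13). Neither of these 2 was called between 7 months and beta cells. Both were called between day 60 and beta cells, Slc31a2 at −0.47 (adjusted p = 0.0239) and Slc25a15 at 0.17 (adjusted p = 0.0266).

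For a few acinar carriers the direction between beta and acinar cells depends on the scaling. Slc11a2 (DMT1), the iron importer, read 8.49, 8.59 and 8.53 in acinar cells, 6.72, 7.47 and 7.07 at 7 months and 6.82, 6.80 and 6.92 in beta cells. Beta cells were 1.69 ± 0.15 lower (adjusted p = 4.73e-08), a difference of 0.03 in the deposited log10 values. Slc25a16, a mitochondrial carrier family gene, read 9.90, 9.85 and 9.93 in acinar cells and 8.15, 8.0 and 8.16 in beta cells. It was 1.79 ± 0.087 lower in beta cells (adjusted p = 1.9e-11), a difference of 0 in the deposited log10 values. Slc35c2, of the nucleotide sugar family, was 1.32 ± 0.054 lower in beta cells (adjusted p = 2.04e-12) but 0.41 higher in those values.

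The serotonin carrier Slc6a4 was measured in acinar cells (6.93, 7.02 and 6.93) and at day 10 (6.68, 6.73 and 6.73) but not in beta cells. The fall from acinar to beta cells was at least 2.83-fold (adjusted p = 5.15e-09). Slc39a11, a zinc importer family gene (11.87, 11.89 and 11.92 in acinar cells), was 1.93 ± 0.08 lower in beta cells (adjusted p = 2.47e-12). At 7 months it was 1.68 ± 0.08 lower than in acinar cells (adjusted p = 2.29e-11). For the thiamine carrier Slc19a2 the mean was 9.09 in acinar cells, 8.46 at 7 months and 7.06 in beta cells. It was 1.41 ± 0.10 higher at 7 months than in beta cells (adjusted p = 6.17e-09). The mitochondrial sodium-calcium exchanger listed as Slc24a6 (now Slc8b1) likewise stayed 1.20 ± 0.064 above beta cells at 7 months (adjusted p = 1.18e-10).

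Carriers well above acinar cells in beta cells included those of neutral amino acids and hexoses. Slc6a17, a carrier of neutral amino acids on synaptic vesicles, read 9.22, 9.33 and 9.21 in beta cells and was unmeasured on all acinar and day 10 arrays (4.45 to 5.52 and 4.58 to 4.67). Beta cells were at least 9.37-fold above acinar cells (adjusted p = 3.39e-09). At 7 months the arrays read 5.87, 4.76 and 4.80, with a detection on the array numbered 1 alone, and the difference from beta cells was −4.11 ± 0.32 (adjusted p = 1.24e-08). Against acinar cells it was called neither at day 10 nor at 7 months (adjusted p = 0.566 and 0.399).

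Slc2a6, a hexose carrier family gene, read 8.76, 8.71 and 8.93 in beta cells and 4.54 to 5.01 in acinar cells, at least 6.86-fold higher in beta cells (adjusted p = 4.59e-08). It was detected at day 10 (6.39, 5.95 and 6.29) and day 30 (5.97, 5.88 and 5.81), while 7-month arrays read 4.95, 6.30 and 4.94. The late arrays disagreed, the array numbered 2 being the highest at both day 60 and 7 months. The mean at 7 months was 3.41 ± 0.37 below beta cells (adjusted p = 4.74e-07). Slc38a4, a family 38 amino acid carrier, read 8.20, 8.24 and 8.51 in beta cells, at least 4.91-fold above acinar cells (adjusted p = 2.66e-12). At 7 months it was unmeasured (4.86, 4.77 and 4.48) and at least 7.46-fold below beta cells (adjusted p = 7.9e-13).

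Slc1a4 (ASCT1), which exchanges alanine, serine and cysteine, was high in both primary cell types and low in all induced cells. It read 8.60, 8.41 and 8.43 in acinar cells, 6.42, 6.57 and 6.48 at day 10, 6.29, 5.90 and 6.53 at 7 months and 9.21, 9.22 and 9.16 in beta cells. No induced array reached an acinar or beta array. Day 10 was 1.99 ± 0.14 lower than acinar cells (adjusted p = 2e-09). The 7-month level was 2.95 ± 0.14 lower than beta cells (adjusted p = 2.98e-11). Slc7a11, the cystine-glutamate exchanger, was like it, measured in acinar cells (6.70, 7.01 and 6.54) and beta cells (7.22, 7.15 and 7.06) and on none of the 12 induced arrays. It was at least 1.92-fold lower at day 10 than in acinar cells (adjusted p = 1.53e-10) and at least 3.31-fold lower at 7 months than in beta cells (adjusted p = 1.99e-10).

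**Figure D3:**
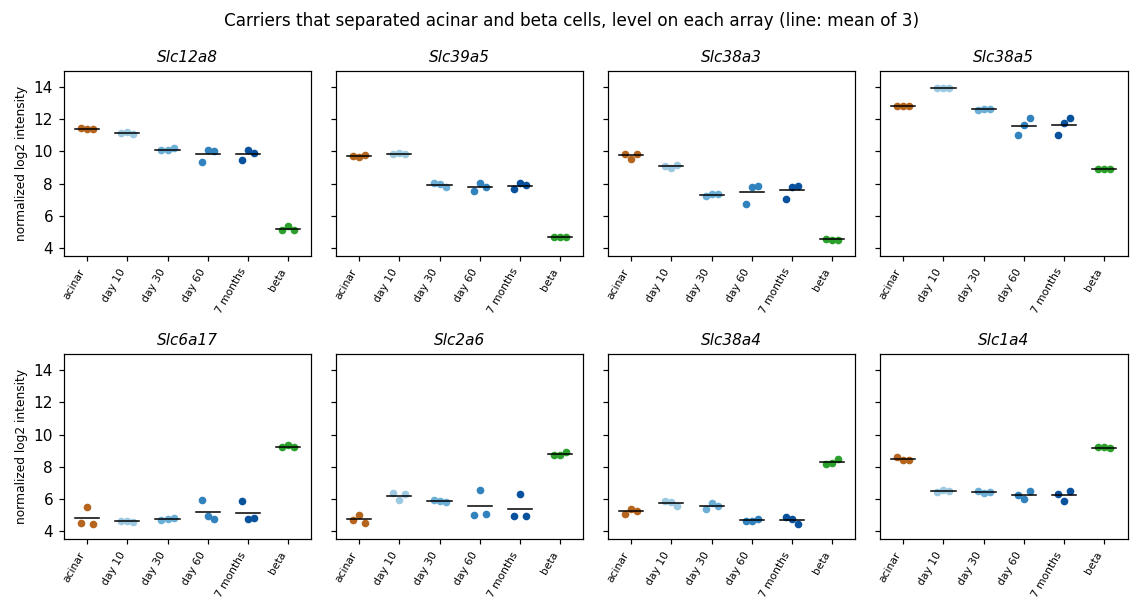
Normalized log2 intensity (vertical axis) of 8 genes on each of the 18 arrays, with a point per array and a line at the mean of each group of 3. Slc12a8, Slc39a5, Slc38a3 and Slc38a5 are lowest in beta cells, with day 10 arrays below acinar arrays for Slc12a8 and Slc38a3 and above them for Slc39a5 and Slc38a5, and Slc6a17, Slc2a6, Slc38a4 and Slc1a4 are highest in beta cells with all induced arrays below them.

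The promoters of 3 acinar carriers, 2 beta cell carriers and 2 carriers high in induced cells are shown because their genes had the widest differences of their kind with a sequence at hand. They were chosen after the values were seen, as were 5 short motifs searched on both strands in the 150 bases before the start. The first, the E-box, is CANNTG and is bound by basic helix-loop-helix factors of both cell types. The RBPJ core was searched as TGGGAA, the site of the Notch pathway factor. The Maf motif was searched as TGCTGA, part of the sites of these beta cell factors. The homeodomain motif was searched as TAATTA, and the TATA box of core promoters as TATAAA. Sequences are those of RefSeq (GRCm38.p6), 5′ to 3′ on the strand of the gene, up to the base before its most upstream listed start, and capitals mark matches to any of the 5 motifs. An E-box stands in 47.3% of 27025 promoters and in 55 of the 119 promoters (46.2%) found for the 145 genes. The RBPJ core stands in 13.1% of all promoters and in 18 of these, the Maf motif in 9.86% and 9, the homeodomain motif in 2.8% and 0, and the TATA box in 8.08% and 1.
Slc12a8 (chr16:33517178-33517327, plus strand): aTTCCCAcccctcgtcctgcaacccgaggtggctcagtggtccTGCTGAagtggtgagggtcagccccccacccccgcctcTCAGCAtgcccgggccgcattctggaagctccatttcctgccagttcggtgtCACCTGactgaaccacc
Slc39a5 (chr10:128401225-128401374, minus strand): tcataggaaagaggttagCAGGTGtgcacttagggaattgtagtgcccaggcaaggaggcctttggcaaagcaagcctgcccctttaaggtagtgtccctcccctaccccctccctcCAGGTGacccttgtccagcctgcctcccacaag
Slc38a5 (chrX:8271231-8271380, plus strand): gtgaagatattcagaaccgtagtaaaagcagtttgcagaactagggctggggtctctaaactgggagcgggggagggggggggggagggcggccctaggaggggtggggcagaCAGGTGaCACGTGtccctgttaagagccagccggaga
Slc6a17 (chr3:107518019-107518168, minus strand): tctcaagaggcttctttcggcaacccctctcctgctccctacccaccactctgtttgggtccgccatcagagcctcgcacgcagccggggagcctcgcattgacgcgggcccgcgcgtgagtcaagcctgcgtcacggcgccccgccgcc
Slc2a6 (chr2:27027999-27028148, minus strand): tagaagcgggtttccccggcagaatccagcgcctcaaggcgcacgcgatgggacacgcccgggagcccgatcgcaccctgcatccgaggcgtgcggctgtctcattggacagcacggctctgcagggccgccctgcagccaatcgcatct
Slc17a6 (chr7:51621680-51621829, plus strand): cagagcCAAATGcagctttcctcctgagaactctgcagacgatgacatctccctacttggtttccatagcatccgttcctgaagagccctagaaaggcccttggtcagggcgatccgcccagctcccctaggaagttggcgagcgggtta
Slc29a4 (chr5:142701951-142702100, plus strand): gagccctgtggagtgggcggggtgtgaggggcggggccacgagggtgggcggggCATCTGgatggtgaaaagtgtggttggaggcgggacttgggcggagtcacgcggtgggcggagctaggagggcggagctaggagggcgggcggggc
Slc12a8 holds an E-box 17 bases before the start, an RBPJ core match at 149 bases and Maf motif matches at 107 and 69, Slc39a5 E-boxes at 132 and 33, and Slc38a5 E-boxes at 37 and 30. The windows of Slc6a17 and Slc2a6 hold none of the 5 motifs, and those of Slc17a6 and Slc29a4 an E-box at 144 and 96. A match is a description of letters and says nothing of binding, and the share of member promoters with an E-box lies near that of all promoters.

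By group mean, 47 of the 145 genes were highest in beta cells, 42 in acinar cells, 38 at day 10 and 18 at the later induced times. The same count was not made over all genes or under other scalings, so it describes this list alone. Against acinar cells 117 were called at day 10, 80.7% where 79.8% of all genes were. Of these 65 were higher and 52 lower, where 40.2% and 39.6% of all genes were. At 7 months 112 were called against acinar cells, 77.2% where 77.7% of all genes were, with 43 higher and 69 lower (37.8% and 39.9% of all genes). Against beta cells 122 were called at day 10, 63 higher and 59 lower (84.1% where 80% of all genes were), and 107 at 7 months (73.8% where 77.9% were). The split against acinar cells depends on scaling, with 85 higher and 29 lower at day 10 and 73 and 43 at 7 months under scaling by array medians. The deposited log10 table gave 111 and 17 at day 10 and 102 and 20 at 7 months. Of all genes 54% were higher and 23.9% lower at day 10 under scaling by array medians, and 58.4% and 19.9% at 7 months. In the log10 table these shares were 71.8% and 12.2%, and 78.1% and 8.47%. Against beta cells at day 10 the split of 63 and 59 turned to 45 and 74 under scaling by array medians and 45 and 77 in the log10 table. Against beta cells at 7 months the splits were 43 and 64, 33 and 84 under scaling by array medians, and 34 and 82 in the log10 table. Under scaling by array medians 29.8% of all genes were higher and 51.5% lower than in beta cells at day 10, and 24.5% and 57.1% at 7 months. In the log10 table these shares were 28.3% and 52.7%, and 25.3% and 55.9%.

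Large neutral amino acids cross the membrane through Slc7a5 (LAT1), which works as a pair with the heavy chain Slc3a2. Slc7a5 read 12.77, 12.74 and 12.78 in beta cells, 1.45 ± 0.09 above acinar cells (adjusted p = 4.67e-10). Its 7-month arrays (11.50, 11.09 and 11.34) overlapped the acinar ones (11.29 to 11.36) and were 1.45 ± 0.09 below beta cells (adjusted p = 7.33e-10). The heavy chain took another course. Slc3a2 read 7.89, 7.20 and 8.05 in acinar cells, 8.16, 8.04 and 8.13 at day 10, 7.22, 7.64 and 7.41 at day 30, 6.90, 6.88 and 7.00 in beta cells, and was unmeasured on all 6 late arrays (4.71 to 5.04). The 7-month level was at least 6.45-fold below day 10 (adjusted p = 1.15e-10) and at least 2.84-fold below beta cells (adjusted p = 1.7e-08). At 7 months the light chain thus overlapped the acinar arrays and the heavy chain was unmeasured. The light chain was called above acinar cells when the late arrays were paired by number (0.16, adjusted p = 0.00888), with scaling by array medians (0.58) and in the deposited log10 table (0.96).

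Among the 26 amino acid carriers as a class, 9 were called higher and 13 lower in beta than in acinar cells, a direction that flips with scaling (14 higher and 7 lower with scaling by array medians, 17 and 5 in the deposited log10 table). At 7 months 6 were higher and 15 lower than in acinar cells, against 10 and 10, and 14 and 7, under the same alternatives, and 11 were higher and 10 lower than in beta cells, against 10 and 13 under both. Slc38a2, a carrier induced by amino acid shortage in many cells, read 10.03 to 10.10 in acinar cells, 8.31 to 8.34 at day 10 and 9.59 to 9.81 at 7 months. It fell by 1.74 ± 0.073 to day 10 (adjusted p = 3.89e-12) and was 1.40 ± 0.073 higher at 7 months than at day 10 (adjusted p = 1.5e-10). Its 7-month arrays lay below the acinar ones, but 0.45 above them with scaling by array medians and 0.82 above in the deposited log10 values. Slc7a3, a cationic amino acid carrier, was 2.12 ± 0.15 lower at 7 months than in beta cells (adjusted p = 2.89e-09), and Slc7a8 (LAT2) was 1.27 ± 0.075 higher (adjusted p = 3.63e-10).

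Some carriers of beta cells were gained after induction. The taurine carrier Slc6a6 read 9.10, 9.15 and 9.18 in acinar cells, 9.48, 9.44 and 9.47 at day 10, 10.65, 10.69 and 10.74 at day 30, 11.60, 11.34 and 11.64 at day 60, 11.58, 11.37 and 11.59 at 7 months and 12.07, 11.95 and 12.01 in beta cells. The groups other than the 2 late ones did not overlap. At 7 months the gene was 2.37 ± 0.08 above acinar cells (adjusted p = 4.41e-13) and 0.49 ± 0.08 below beta cells (adjusted p = 3.89e-05). The plasma membrane sodium-calcium exchanger Slc8a1 rose likewise, from 5.92, 6.44 and 6.32 in acinar cells through 6.87 to 7.03 at day 10 to 8.34, 8.24 and 8.13 at 7 months, with 8.73 to 8.81 in beta cells. The late level was 2.01 ± 0.11 above acinar cells (adjusted p = 2.08e-10). The zinc importer gene Slc39a6 stood 1.76 ± 0.083 above acinar cells at 7 months (adjusted p = 2.42e-11) and 0.56 ± 0.083 below beta cells (adjusted p = 1.59e-05).

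The creatine carrier Slc6a8 (acinar mean 7.79, 7 months 9.62, beta 9.69) and the mitochondrial ATP-magnesium carrier Slc25a25 (7.87, 9.48 and 9.57) were 1.83 ± 0.13 and 1.61 ± 0.10 above acinar cells at 7 months (adjusted p = 2.79e-09 and 7.92e-10). Neither was called against beta cells then. The potassium-chloride cotransporter Slc12a7 was unmeasured in acinar cells, at least 2.52-fold below beta cells (adjusted p = 4.75e-10), and was measured on all 12 induced arrays. Slc5a6, the carrier of biotin and pantothenate, was 1.22 ± 0.14 higher at 7 months than in acinar cells (adjusted p = 9.23e-07), after a difference of 1.79 at day 10. Both Slc12a7 and Slc5a6 remained below beta cells at day 60, with differences of −1.02 and −1.03 (adjusted p = 0.000108 and 6.57e-06). The iron exporter Slc40a1 (ferroportin) dipped and returned. Acinar arrays read 8.68, 8.67 and 8.58, day 10 arrays 6.91, 6.92 and 6.55, day 30 arrays 7.94, 7.90 and 8.01, 7-month arrays 9.08, 9.42 and 8.77 and beta arrays 9.48, 9.25 and 9.47. The day 10 arrays lay below all others. They were 1.85 ± 0.16 below acinar cells (adjusted p = 1.84e-08) and 2.29 ± 0.16 below 7 months (adjusted p = 2.6e-09).

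Exchangers that set cytosolic and granule pH were a class in which most calls were higher in beta cells, 7 of 10 with 3 lower (8 and 2 with scaling by array medians and in the deposited log10 table), while at 7 months 2 were higher and 6 lower than in beta cells (1 and 7 under both). Of the called exchangers 70% were higher in beta than in acinar cells, where 53% of all called genes were, and under the alternatives 80%, where 80.3% and 88.4% were. At 7 months 25% of the called exchangers were higher than in beta cells, where 44.6% of all called genes were. Under both alternatives this was 12.5%, where 30% and 31.1% were. The anion exchanger Slc4a3 (7.86, 7.84 and 7.81 in beta cells) and the organelle exchangers Slc9a7 (6.98, 6.92 and 6.97) and Slc9a9 (7.15, 7.17 and 6.98) were unmeasured in acinar cells and at 7 months. They were at least 4.3-fold, 2.9-fold and 3.2-fold lower at 7 months than in beta cells (adjusted p = 5.42e-11, 2.33e-09 and 4.79e-09). Slc16a10, a carrier of aromatic amino acids, was unmeasured on all 12 induced arrays and at least 3.91-fold lower at 7 months than in beta cells (adjusted p = 7.19e-11). The nucleotide sugar carrier Slc35b4 stayed 1.16 ± 0.06 below beta cells (adjusted p = 8.41e-11).

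A further set of carriers was higher in induced cells than in acinar and beta cells. Slc17a6 (VGLUT2), which loads glutamate into synaptic vesicles, rose late. It read 5.73, 6.47 and 5.93 in acinar cells, 6.82, 6.72 and 6.52 at day 10, 7.10, 7.05 and 7.15 at day 30, 9.92, 9.15 and 8.99 at day 60 and 9.97, 9.09 and 9.11 at 7 months, and was unmeasured in beta cells (4.75, 4.53 and 4.53). The late arrays lay above all others, 3.35 ± 0.25 above acinar cells (adjusted p = 5.63e-09) and at least 15.3-fold above beta cells (adjusted p = 9.42e-11). The step from day 30 to day 60 was 2.25 ± 0.25 (adjusted p = 1.66e-06). Slc18a2 (VMAT2), which loads monoamines into granules, was measured on all 12 induced arrays and on none of acinar or beta cells. It read 7.10, 7.29 and 7.16 at day 10, 7.59, 7.66 and 7.75 at day 30 and 6.0, 7.05 and 6.28 at 7 months. Day 10 was at least 3.3-fold above beta cells (adjusted p = 5.37e-09) and 7 months at least 1.97-fold (adjusted p = 3.03e-07).

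Slc29a4, a monoamine carrier of the nucleoside carrier family, was unmeasured in acinar cells (4.50, 4.44 and 4.35) and read 9.86, 9.95 and 9.92 at day 10, 9.50, 9.50 and 9.52 at day 30, 8.88, 9.09 and 9.30 at 7 months and 7.28, 7.54 and 7.41 in beta cells. Every induced array lay above every beta array. The gene was at least 14.8-fold above acinar cells at day 10 (adjusted p = 6.13e-15) and 1.67 ± 0.13 above beta cells at 7 months (adjusted p = 8.19e-09). Slc29a1, which carries nucleosides, was near 10 at all induced times (means 9.97, 9.80, 9.77 and 9.78) against 7.03 in acinar and 8.33 in beta cells. It was 2.94 ± 0.14 above acinar cells at day 10 (adjusted p = 1.53e-11) and 1.46 ± 0.14 above beta cells at 7 months (adjusted p = 1.15e-07). Slc6a19, the neutral amino acid carrier of gut and kidney epithelium, read 5.81, 6.35 and 5.78 in acinar cells, 7.37, 7.26 and 7.31 at day 10, 8.90, 9.03 and 8.97 at day 30, 9.37, 8.34 and 8.56 at 7 months and 6.57, 6.46 and 6.63 in beta cells. It was 2.20 ± 0.24 higher at 7 months than in beta cells (adjusted p = 5.35e-07). In each of these 3 genes all induced arrays were above all acinar and beta arrays.

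Carriers known from phagocytes also moved, with macrophage markers beside them. Slc7a7, which with Slc3a2 exports cationic amino acids and is also a gene of macrophages, read 5.51, 5.51 and 5.71 in acinar cells, 10.14, 10.12 and 10.15 at day 10, 8.99, 8.91 and 8.89 at day 30, 7.88, 8.40 and 8.31 at 7 months and 5.27, 5.12 and 5.35 in beta cells. It was 4.56 ± 0.13 above acinar cells at day 10 (adjusted p = 3.76e-14) and 2.95 ± 0.13 above beta cells at 7 months (adjusted p = 8.26e-12), with no overlap of induced and other arrays. The peptide and histidine carrier Slc15a3 of phagocyte lysosomes read 7.81, 7.87 and 7.84 at day 10, 5.43 to 5.79 at day 30 and 5.53, 7.00 and 5.94 at 7 months, and was unmeasured in acinar and beta cells. Day 10 was at least 3.52-fold above acinar cells (adjusted p = 6.21e-07). The phagosome metal carrier Slc11a1 was 1.29 ± 0.24 above acinar cells at day 10 (adjusted p = 0.000152) and read 7.25, 8.38 and 7.47 at 7 months. Of 10 macrophage markers, 5 were detected on any acinar array, 7 at day 10, 8 at day 30, 9 at day 60, 8 at 7 months and 3 in beta cells, and Itgam was detected nowhere. Their summed level was 2212 to 2325 in acinar cells, 4900 to 5122 at day 10, 1896 to 2021 at day 30, 2735, 7650 and 4853 on the 7-month arrays numbered 1, 2 and 3, and 417 to 436 in beta cells. The 7-month array numbered 2 was the highest in this sum and in both Slc15a3 and Slc11a1, and the part of macrophage RNA in these 3 genes was not tested. The marker list was split at day 30. Cd68 (7.12 against 5.05), C1qa (7.39 against 5.59) and Emr1 (5.7 against 5.17) were then above acinar cells. Lyz (9.7 against 10.24), Cd14 (7.6 against 8.14), Csf1r (5.32 against 6.43) and Tyrobp (4.98 against 5.94) were below. Cd68, C1qa and Fcer1g were the markers detected in beta cells.

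The red cell anion exchanger Slc4a1 was detected on all day 10 and day 30 arrays (5.96, 6.13 and 6.28 at day 10) and on no acinar array (5.09 to 5.37), at least 1.07-fold higher at day 10 (adjusted p = 1.61e-05). Red cell markers went the other way, with a summed level of 14259 to 14383 in acinar cells and 292 to 315 at day 10, and Hbb-b2 was detected nowhere. This sum includes Slc4a1 itself. It was 8176 and 7970 on the day 60 and 7-month arrays numbered 1, against 1033 to 1270 on the late arrays numbered 2 and 3. The part of red cell RNA in the carrier levels was not tested.

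Over the time after induction, many carriers were high early and lower late. Between day 10 and 7 months 37 of the 145 genes rose and 77 fell, 114 in all (78.6%), where 75.1% of all genes were called, 35.5% higher and 39.6% lower. From day 10 to day 30, 25 rose and 59 fell (57.9%, against 61.2% of all genes, 31.2% higher and 30% lower). From day 30 to day 60, 39 rose and 43 fell (56.6%, against 61.8% of all genes, 30.3% higher and 31.6% lower). The split from day 10 to day 30 depends on scaling, with 45 higher and 39 lower when scaled by array medians and 54 and 25 in the deposited log10 table, and that from day 10 to 7 months was 35 and 77, and 34 and 70. From day 10 to day 30 these are 31% and 26.9% of the carriers when scaled by array medians, against 42.2% and 19.6% of all genes. In the log10 table they are 37.2% and 17.2%, against 52.4% and 9.81%. From day 10 to 7 months 35.7% of all genes were higher and 39.3% lower, and 36.5% and 34.9%, under the same alternatives. Across all 4 induced times an F-test called 123 genes, where 84% of all genes were called.

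Slc5a10, a sodium-coupled mannose and fructose carrier of kidney, was highest at day 10. It was unmeasured in acinar cells (4.44, 4.43 and 4.56) and beta cells (4.91, 4.59 and 4.66), read 8.58, 8.56 and 8.43 at day 10, 6.02, 6.23 and 6.08 at day 30, and 6.27, 4.64 and 5.11 at 7 months. It was at least 5.65-fold above acinar cells at day 10 (adjusted p = 5.09e-08) and 2.41 ± 0.37 lower at day 30 than at day 10 (adjusted p = 4.68e-05), with no overlap. The late array numbered 1 was the only one with a detection at each late time.

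Slc37a4, which carries glucose 6-phosphate into the endoplasmic reticulum, was unmeasured in acinar cells (4.47, 4.41 and 4.59) and read 8.97, 8.87 and 9.02 at day 10, 8.65, 8.74 and 8.65 at day 30, 6.27, 5.78 and 5.78 at day 60, 6.16, 5.63 and 5.49 at 7 months and 7.66, 7.83 and 7.79 in beta cells. It stood 1.19 ± 0.15 above beta cells at day 10 (adjusted p = 2.06e-06) and 2.00 ± 0.15 below them at 7 months (adjusted p = 6.41e-09), with no overlap at either time. Its relative Slc37a1 did not follow. It read 7.52, 7.63 and 7.87 at day 10 and 7.89, 7.55 and 7.61 at 7 months, at least 3.14-fold and 3.17-fold above acinar cells (adjusted p = 3.5e-09 and 4.4e-09).

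The glucose carrier gene Slc2a1 (GLUT1) was also highest at day 10 and day 30. It read 7.54, 7.46 and 7.51 in acinar cells, 10.45, 10.51 and 10.53 at day 10, 10.72, 10.68 and 10.67 at day 30, 8.89, 9.44 and 8.77 at 7 months and 9.14, 9.28 and 9.07 in beta cells. It was 3.00 ± 0.16 above acinar cells at day 10 (adjusted p = 6.8e-11), fell by 1.65 ± 0.16 between day 30 and day 60 (adjusted p = 3.92e-07), and at 7 months overlapped beta cells. The fructose carrier Slc2a5 read 6.54, 6.10 and 6.34 at day 30 and was unmeasured at day 60, at least 1.87-fold lower (adjusted p = 8.98e-09). Of the 9 hexose and sodium-glucose carriers, 5 were higher and 2 lower in beta than in acinar cells (5 and 1 with scaling by array medians, 6 and 0 in the deposited log10 table), and 5 and 1 at 7 months against acinar cells (4 and 1, and 8 and 0).

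Single carriers of vitamins, nucleotide sugars and mitochondria also fell late. Slc23a2, a vitamin C carrier, read 6.33, 6.44 and 6.45 in acinar cells, 7.07, 7.13 and 7.07 at day 30 and 7.86, 7.96 and 8.04 in beta cells, and was unmeasured on all 6 late arrays (4.55 to 4.90). It was at least 5.79-fold below beta cells at 7 months (adjusted p = 2.39e-14). Slc35d3, of the nucleotide sugar family, read 7.31, 7.32 and 7.24 at day 10, 6.23, 4.95 and 5.93 at 7 months and 7.86, 7.95 and 8.10 in beta cells. It was 2.26 ± 0.24 lower at 7 months than in beta cells (adjusted p = 4.8e-07). Slc35b1, which exchanges ATP and ADP at the endoplasmic reticulum, was 1.39 ± 0.11 above acinar cells at day 10 (adjusted p = 1.47e-08) and had fallen by 1.59 ± 0.11 at 7 months (adjusted p = 5.21e-09). The mitochondrial phosphate carrier Slc25a3 read 10.83, 10.75 and 10.85 at day 10, 9.86, 10.05 and 9.62 at 7 months and 11.36, 11.42 and 11.30 in beta cells. The gene was 1.52 ± 0.091 lower at 7 months than in beta cells (adjusted p = 4.81e-10). The ADP-ATP carrier Slc25a5 (mean 12.87 in acinar and 13.15 in beta cells) differed by 0.28 ± 0.062 between them (adjusted p = 0.000669).

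Zinc carriers moved in both directions over time. The Golgi zinc carriers Slc30a6 and Slc30a7 fell by 1.20 ± 0.11 and 1.38 ± 0.16 from day 30 to day 60 (adjusted p = 2.07e-07 and 3.37e-06). At 7 months they read 7.22, 7.36 and 6.86, and 7.18, 7.32 and 7.93, below all beta arrays (8.32 to 8.39 and 8.77 to 8.90). Slc30a5, the partner of Slc30a6 in the Golgi, went the other way. It read 9.99, 10.07 and 9.97 in acinar cells, 8.16, 8.20 and 8.07 at day 10 and 9.36, 9.45 and 9.51 at 7 months. Its level was 1.30 ± 0.063 higher at 7 months than at day 10 (adjusted p = 6.12e-11). Of 14 zinc carriers 4 were higher and 9 lower in beta than in acinar cells, which scaling by array medians turned to 8 and 3 and the deposited log10 table to 10 and 2. Slc30a1, the zinc exporter of the plasma membrane, was 1.34 ± 0.18 lower in beta than in acinar cells (adjusted p = 4.62e-06) but 0.06 higher in the deposited log10 table. It stayed 1.14 ± 0.18 above beta cells at 7 months (adjusted p = 3.21e-05).

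**Figure D4:**
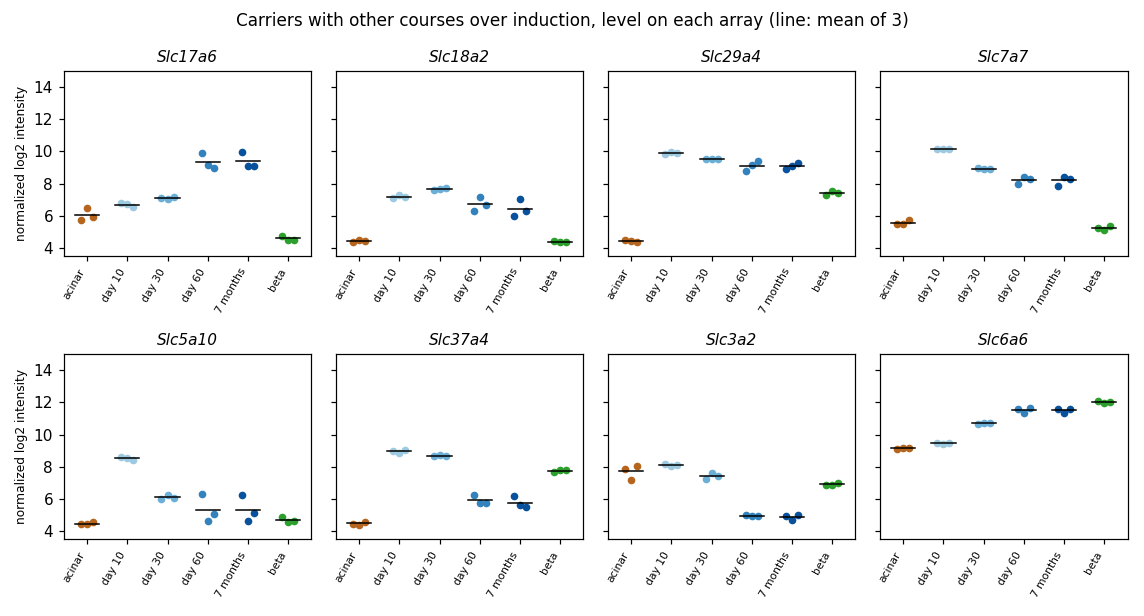
Normalized log2 intensity (vertical axis) of 8 genes on each of the 18 arrays, with a point per array and a line at the mean of each group of 3. Slc17a6, Slc18a2, Slc29a4 and Slc7a7 are higher on all induced arrays than on beta arrays, Slc5a10 peaks at day 10, Slc37a4 and Slc3a2 fall between day 30 and day 60, and Slc6a6 climbs in steps from acinar to beta cells.

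Across the mitochondrial carriers, 10 of 20 were higher and 10 lower in beta than in acinar cells (15 and 2 with scaling by array medians, 18 and 1 in the deposited log10 table). At 7 months 8 were higher and 11 lower than in acinar cells (10 and 4, and 16 and 1), and 3 higher and 9 lower than in beta cells (3 and 13 under both). Of all genes called at 7 months, 48.7% were higher than in acinar cells (74.6% and 90.2%) and 44.6% higher than in beta cells (30% and 31.1%). Of the 18 nucleoside and nucleotide sugar carriers, 10 were higher and 5 lower in beta than in acinar cells (13 and 2, and 14 and 0), and 2 and 10 at 7 months against beta cells (2 and 14 under both). Among them Slc35a3, which carries UDP-N-acetylglucosamine into the Golgi, was unmeasured at day 10 and at least 4.14-fold lower than in acinar cells (adjusted p = 1.5e-11). The mitochondrial citrate carrier Slc25a1 was 1.44 ± 0.12 above acinar cells at day 10 (adjusted p = 1.41e-08). Of 7 carriers of metals other than zinc, 3 were higher and 4 lower in beta than in acinar cells (4 and 2, and 4 and 1), and of 5 cation-chloride cotransporters 2 and 3 (3 and 2 under both). Of 7 organic ion and bile acid carriers 2 were higher and 4 lower (3 and 2, and 5 and 1), of 6 vitamin and choline carriers 3 and 2 (4 and 2, and 4 and 1), and of 6 phosphate and sugar phosphate carriers 4 and 1 (5 and 0 under both). The fatty acid transport protein Slc27a1 was 2.34 ± 0.12 higher at day 10 than in beta cells (adjusted p = 6.35e-11). Slc33a1, which carries acetyl-CoA into the endoplasmic reticulum, was unmeasured at 7 months and at least 1.25-fold lower than in beta cells (adjusted p = 9.29e-06). Of the 3 genes whose symbols begin with Slc but whose products are not carriers (Slc9a3r1, Slc4a1ap and Slc7a6os), all 3 were lower in beta than in acinar cells (2 higher and 1 lower under both alternatives), the scaffold gene Slc9a3r1 by 2.83 ± 0.12 (adjusted p = 3.3e-12).

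**Figure D5:**
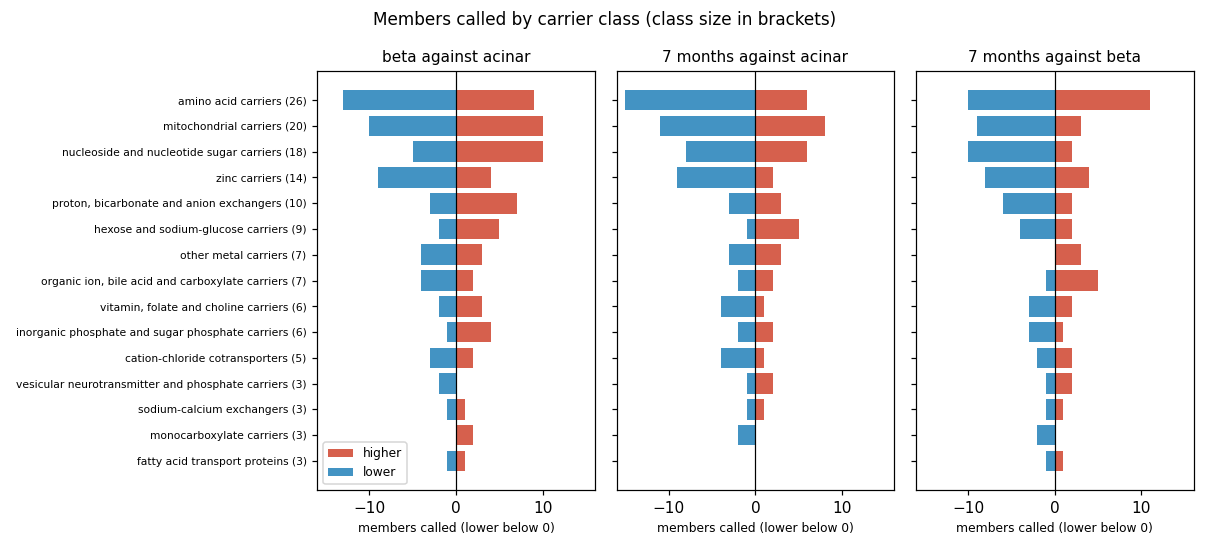
Number of genes called higher (right of 0) and lower (left of 0) in each carrier class, with the size of the class in brackets, for beta against acinar cells, 7 months against acinar cells and 7 months against beta cells. Amino acid carriers show 9 higher and 13 lower in beta than in acinar cells and 6 and 15 at 7 months against acinar cells, a split that turns with the scaling, and most called proton and anion exchangers are higher in beta cells.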

How the data were processed

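Illumina MouseRef-8 v2.0 beadchips measured the RNA of 18 samples in 6 groups of 3, per the labels' protocols. Groups and replicate numbers were taken from sample titles. For every symbol and array the deposited table holds an intensity, not normalized, with its detection p-value, per the file headers. The deposited series matrix holds log10 values of 18112 symbols equal to log10 of the same intensities to within 5.5e-10, with column medians of 1.75 to 1.91. How the authors summarised probes to symbols, and with which software, is not given in the sources used here. Array medians were 56.8 to 81.6, and 3 arrays a group limit the precision of every value.

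Intensities were corrected with normexp in limma 3.58.1 (R 4.3.3), with negative controls inferred from detection p-values on the 1 in 798 grid, an offset of 16, quantile normalization and log2. Genes detected (p-value under 0.01) on 3 or more arrays entered 1 limma model over all 18 arrays (9 comparisons, prior degrees of freedom 2.98), with Benjamini-Hochberg adjustment over 8942 genes and calls at 0.05. For an unmeasured group, the bound sets the bright group's mean against, per array, the higher of the floor and the gene's own value. Motifs were counted with Python 3.11.15.

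The genes, classes, marker lists, tests and alternatives were chosen with earlier results of these data known. Genes were named by a rule: the 10 members with the largest positive and negative difference in each comparison among called genes whose groups do not overlap, the 3 with the widest range in each class, the 5 brightest of acinar and beta cells, genes at the edge of the detection rule and a list of carriers known in pancreas or other cells. Those the text singles out from these were picked after their values were seen. Results of some genes are not reported here, and the counts of named differences leave them out. Carrier classes follow the family number in the symbol, so Slc5a6 stands with the hexose carriers and Slc16a10 with the monocarboxylate carriers.

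The replicate numbers were tested as pairs. Same-numbered arrays deviated together only between day 60 and 7 months (correlations of 0.79 to 0.86, against −0.04 to 0.07 in the other 14 pairs of groups), so pairing was applied to those groups as an alternative. In simulated data for 7 months against day 60 (8942 genes, 200 changed, independent noise), limma called 70% of the 1.5-fold changes and 95% of the 2-fold changes, and 3.51% of its calls were false. The noise had 1 spread per gene pooled over all groups, while real arrays within these 2 times lay 0.22 to 0.27 apart, against 0.0881 to 0.126 within the other groups. Same-numbered late arrays also deviated together, so these rates do not carry over to the real comparison. Alternatives were the background correction, offset, scaling, filter, the deposited log10 values, replicate blocks and leaving out arrays.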

Additional observations from a re-analysis of the deposited data

Results flagged for a closer look

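For 15 differences of 14 genes the change from acinar or beta cells had opposite signs at day 10 and 7 months, and the difference between these times was itself called by limma and at least 1 on the log2 scale. Both changes share their control arrays, so the difference tested is that between day 10 and 7 months. The groups of 3 arrays were too small for a test of outlying samples.

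Against acinar cells, Slc38a5, a glutamine carrier, was 1.11 higher at day 10 and 1.20 lower at 7 months, a difference of −2.31 (adjusted p = 3.52e-07). The choline carrier family gene Slc44a4 went from 1.01 to −0.61 (difference −1.62, adjusted p = 9.35e-10), the mitochondrial S-adenosylmethionine carrier Slc25a26 from 0.79 to −0.97 (−1.75, adjusted p = 2.86e-09) and the mitochondrial sodium-calcium exchanger Slc24a6 from 0.58 to −0.85 (−1.43, adjusted p = 2.8e-11). For the last 3 of these the sign at 7 months turns positive with the deposited log10 values, so their opposite signs depend on the scaling, while the fall between the times kept its call. Slc3a2, unmeasured at 7 months, went from 0.40 to a fitted −2.82, at least 4.89-fold lower (fitted difference −3.22 between the times, at least 6.45-fold, adjusted p = 1.15e-10), and its day 10 change rests on acinar array 2: without it the change was 0.14 (adjusted p = 0.266). Slc38a4 went from a fitted 0.52 to −0.54 (−1.06, at least 1.27-fold, adjusted p = 1.73e-06) but was unmeasured in acinar cells and at 7 months. Slc40a1, the iron exporter, went from −1.85 to 0.45 (2.29, adjusted p = 2.6e-09), and without 7-month array 2 its late change was 0.28 (adjusted p = 0.102).

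Against beta cells, Slc37a4, the glucose 6-phosphate carrier, went from 1.19 to −2.00 (−3.20, adjusted p = 4.22e-11), Slc3a2 from 1.18 to a fitted −2.04, at least 2.84-fold lower (fitted difference −3.22, adjusted p = 1.15e-10) and Slc35b1 from 1.10 to −0.49 (−1.59, adjusted p = 5.21e-09). The nucleotide sugar family gene Slc35c2 went from 0.74 to −0.49 (−1.23, adjusted p = 2.07e-11), and the zinc importer gene Slc39a1 from 1.09 to −0.50 (−1.59, adjusted p = 5.29e-06), whose late change lost its call in 6 of the fits that left out arrays, with the late arrays paired by number (adjusted p = 0.0982), without background correction, with an offset of 50, without the filter and with limma's own control estimate. The fatty acid transport protein Slc27a4 went from 0.39 to −0.72 (−1.11, adjusted p = 6.23e-06), with the day 10 sign turned by scaling. Slc38a2 went from −0.70 to 0.69 (1.40, adjusted p = 1.5e-10) and Slc4a1ap, which is not a carrier, from −1 to 0.45 (1.46, adjusted p = 3.26e-10), the latter with its 7-month sign turned by scaling.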

How the results depend on the processing

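Over 30 alternative settings none of the 10 counts of called solute carriers moved by more than 1.5 times. Most of these counts could not have risen that far within 145 genes, so the limit says little about them. The splits by direction did move, as between beta and acinar cells, from 65 higher and 63 lower to 106 and 17 in the deposited log10 values. Leaving out each array in turn gave 121 to 130 genes between beta and acinar cells, 111 to 120 and 104 to 115 at day 10 and 7 months against acinar cells, 110 to 125 and 103 to 111 against beta cells, 77 to 88 from day 10 to day 30, 80 to 87 from day 30 to day 60, 108 to 115 from day 10 to 7 months, and 118 to 125 by the F-test. With the replicate number as a block in all groups these counts were 130, 120, 114, 123, 111, 86, 86, 115 and 123, and with day 60 and 7-month arrays alone paired (an alternative added after seeing the data, as was leaving out all arrays of either time) they were 134, 127, 113, 128, 117, 104, 95, 113 and 125; both pairings left 7 months against day 60 at 0. Of 239 named differences, 214 kept direction and call in all settings, 11 reversed under at least 1 and 16 lost their call under at least 1. Those that reversed did so with the deposited log10 values, whose centre differs between groups: at 7 months against acinar cells Slc24a6 0.40, Slc25a26 0.25, Slc38a4 0.08 and Slc44a4 0.41, between beta and acinar cells Slc30a1 0.06, Slc11a2 0.03, Slc25a16 0 and Slc35c2 0.41, at 7 months against acinar cells Slc38a2 0.82, Slc27a4 at day 10 against beta cells −0.15, and Slc4a1ap at 7 months against beta cells −0.03. With scaling by array medians Slc24a6 (0.02), Slc44a4 (0.11), Slc38a2 (0.45), Slc27a4 (−0.15) and Slc4a1ap (−0.01) reversed in the same comparisons. The call was lost for Slc38a2 at 7 months against beta cells under both scalings (0.18 and 0.14), and with limma's own control estimate for Slc38a4 at 7 months against day 10 (−0.10). Slc40a1 at 7 months against beta cells became called under both scalings (−0.75 and −0.74), with the late arrays paired by number (−0.35, adjusted p = 0.00979) and without 7-month replicate 2 (−0.47). That pairing also called Slc7a5 at 7 months against acinar cells (0.16) and ended the calls of Slc39a1 against beta cells (−0.49) and Slc25a5 against acinar cells (0.14) at 7 months, and it changed no other call of a named difference. The causes were not tested. Signals near the floor of each array limit what can be said of dim carriers, since an unmeasured gene has only a bound.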

Other observations

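Membrane transport genes outside the Slc symbols were described in the same way, from lists chosen with earlier results known. Of all genes tested 42.1% were higher and 37.4% lower in beta than in acinar cells, and of the called genes 53% were higher (88.4% in the deposited log10 table). Of 17 vacuolar proton pump subunits, which acidify granules and lysosomes, 14 were higher and 1 lower in beta than in acinar cells (17 and 0 in the deposited log10 table), and at 7 months 5 were higher and 10 lower than in beta cells, where 34.7% and 43.2% of all genes were. With scaling by array medians these counts were 1 and 10, and the deposited log10 values gave 1 and 12, where 24.5% and 57.1%, and 25.3% and 55.9%, of all genes were. Among genes singled out after their values were seen, Atp6v1a1 had mean levels (log2) of 8.46 in acinar cells, 7.74 at day 10, 7.23 at 7 months and 10.66 in beta cells. Of 22 ATP-binding cassette transporters 13 were higher and 5 lower in beta than in acinar cells, and of 10 cation pumps 7 and 1.

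The aquaporin water channels differed gene by gene, with 3 of 7 higher and 3 lower in beta than in acinar cells. Aqp12, known from acinar cells, had mean levels of 11.60 in acinar cells, 9 at day 10, 8.64 at 7 months and 4.6 in beta cells, where it was detected on no array. Aqp8 was highest at day 10, at 11.18, against 7.78 in acinar cells, 9.68 at 7 months and 4.57 in beta cells, where it too was undetected. Of the 4 organic anion carriers named Slco, 1 was higher and 3 lower in beta than in acinar cells, and of 10 carriers under other names 6 and 3.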
